A study of Canis lupus familiaris with 23 samples.

Results

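Canine acanthomatous ameloblastoma (CAA) was compared with healthy gingiva across all genes expressed in either tissue. The comparison took the 5 CAA libraries and the 7 gingiva libraries out of 23 bulk RNA-seq libraries in the series; the other 11 libraries are oral squamous cell carcinomas (COSCC). Of 30951 genes in the count table, 14638 had enough reads in these 12 libraries to be tested. The CAA were 3 maxillary and 2 mandibular tumors, and the dogs were an Australian Shepherd, a Boxer, a Great Dane and 2 Labrador Retrievers. One gingiva sample is labelled maxilla and the jaw of the other 6 is given as undetermined; these samples came from 3 mixed-breed dogs, 2 Labrador Retrievers, a Staffordshire Bull Terrier and a Catahoula Leopard Dog. The labels name no treatment, and the ages are not given in the sources used here. A code, FS or MC, divides the CAA 2 to 3 and the gingiva 4 to 3, and its meaning is not given. The labels do not state that each library is a different dog, so the p-values measure the spread between these samples.

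CAA is a tumor of odontogenic epithelium, the tissue that forms the teeth, and arises in the tooth-bearing jaw of the dog. It invades bone locally and is not known for distant spread. Healthy gingiva is a keratinized stratified squamous epithelium over dense fibrous tissue, so its RNA holds large amounts of the structural proteins of differentiated surface cells. The table carries Ensembl dog gene identifiers without symbols, and 0 of them could be paired with a gene name. Genes are therefore described by level, rank and behaviour, the tissue labels could not be checked against marker genes, and only 4 identifiers are given.

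Total counts ran from 15120326 to 16007894 per library. Whether reads were subsampled to such even totals before counting is not given in the sources used here, so the counts of detected and silent genes below hold for this depth. CAA and gingiva separated on the first principal component, which held 52.8% of the variance: the 5 CAA libraries lay between 54.2 and 128.6 and the 7 gingiva libraries between -84.3 and -36.9. Gingiva replicate 3 and CAA replicate 4 stood apart on the second component, at -92.2 and -52.3, with the other 10 libraries between -2.63 and 49.3. Several of the main counts below were therefore also taken without these libraries, where so stated.

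With TMM scaling, CAA differed from gingiva in about as many genes upward as downward. Levels are given as CPM, a gene's counts relative to library size, with library sizes adjusted by TMM factors (trimmed mean of M values). On this scale 5125 of 14638 genes (35%) passed an adjusted p of 0.05 in edgeR's quasi-likelihood test. CAA was higher in 2660 of them (18.2% of genes tested) and lower in 2465 (16.8%). At least 2-fold differences were found in 3202 called genes (21.9%), 1889 higher and 1313 lower. The balance turned with size: at 16-fold or more, 120 genes were higher and 156 lower, and at 32-fold or more 52 were higher and 79 lower. The median log2 fold change was 1.42 over the genes called higher and -1.06 over those called lower, against -0.01 over all genes tested. Without CAA replicate 4 and gingiva replicate 3, the calls numbered 3380 higher and 2953 lower. The split depended on the scaling. With library totals alone, the median of all genes moved by 0.40 on the log2 scale. Then 80.5% of 5882 calls were higher, against 51.9% under TMM. Upper-quartile factors moved the median by 0.13 and gave 62.4%. Median-of-ratios factors stayed near TMM, moving the median by 0.007 and giving 52.4% of 5187 calls.

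**Figure D1:**
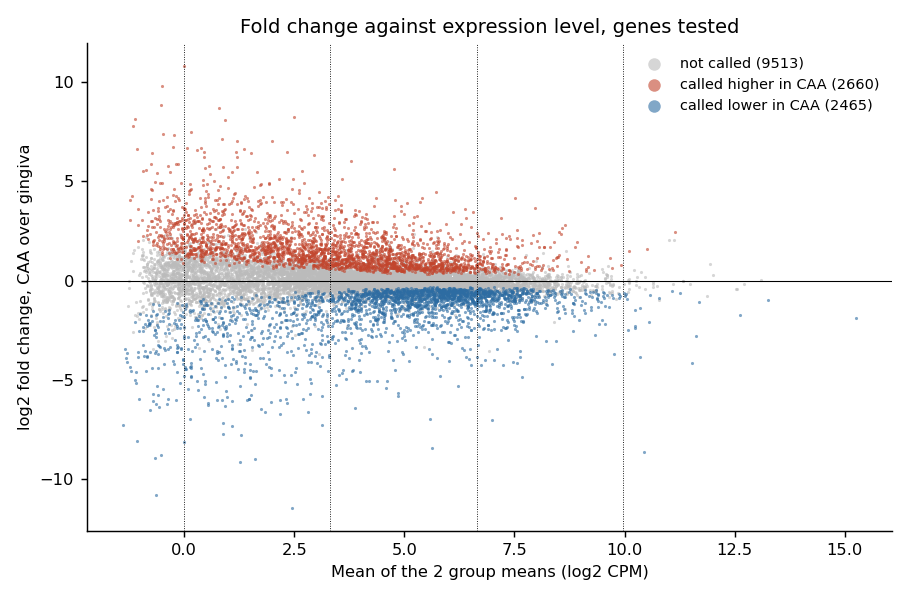
Each point is 1 of the 14638 genes tested, placed by the mean of its CAA and gingiva levels (x axis, log2 CPM) and its log2 fold change of CAA over gingiva (y axis); dotted lines mark 1, 10, 100 and 1000 CPM. The 2660 genes called higher lie mostly to the left of centre and the 2465 called lower extend to the most abundant genes.

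The largest movements in absolute level were falls. ENSCAFG00000007322, the gene of rank 2 in gingiva by share of counts, had 19828 to 94075 CPM in the 7 gingiva libraries, with a median of 39392. In CAA replicates 1 to 5 it had 17.5, 23.6, 37.6, 473.7 and 27.6 CPM. No CAA library came near the gingiva range, and CAA replicate 4 was the highest tumor by more than 10-fold. Gingiva averaged 47112 ± 25701 CPM (SD, n = 7) and CAA averaged 116.0 ± 200.1 CPM (SD, n = 5). The log2 fold change was -8.67 ± 1.19 (SE, edgeR adjusted p = 0.000173). Without CAA replicate 4 the log2 fold change was -10.75. In bulk tissue, fewer cells of a type cannot be told apart from less RNA per cell.

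ENSCAFG00000016017, the gene of rank 4 in gingiva, had 8655 to 20446 CPM there, with a median of 12892. Its CAA values were 480.8, 977.6, 1658, 304.2 and 529.4 CPM, all below the gingiva range. The log2 fold change was -4.16 ± 0.49 (SE, edgeR adjusted p = 6.903e-05). When the spread was estimated over all 23 libraries, the log2 fold change of ENSCAFG00000016017 was -4.13 and no longer passed the threshold (edgeR adjusted p = 0.0742).

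Rises among abundant genes were smaller in CPM. ENSCAFG00000008557 had 716.8 to 1179 CPM in gingiva, with a median of 847.6. In CAA replicates 1 to 5 it had 2451, 2726, 1961, 1751 and 4140 CPM. Every tumor lay above every gingiva library, and the log2 fold change was 1.57 ± 0.23 (SE, edgeR adjusted p = 0.000259). It moved from rank 118 in gingiva to rank 16 in CAA by mean share of counts.

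ENSCAFG00000005843 rose further from a lower base. It had 15.8 to 208.7 CPM in gingiva, with a median of 62.1, and 913.5, 785.4, 524.1, 1444 and 1850 CPM in CAA replicates 1 to 5. The log2 fold change was 3.65 ± 0.58 (SE, edgeR adjusted p = 0.000444), and its rank moved from 2608 to 46. Gingiva libraries varied more among themselves in this gene than the tumors did, with a 3.53-fold range between the tumors.

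**Figure D2:**
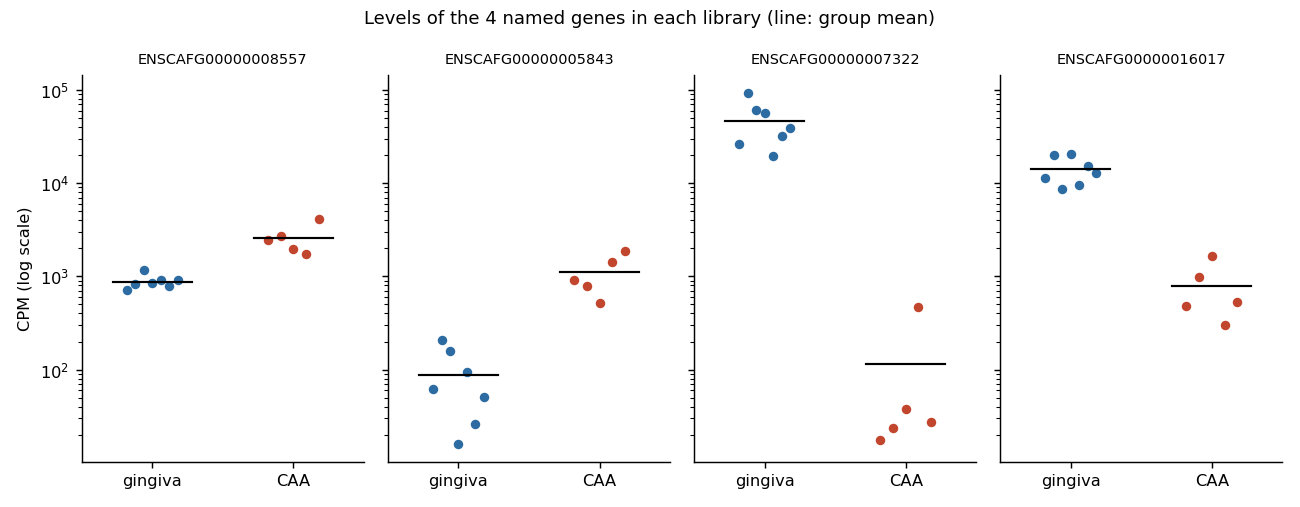
CPM on a log axis of the 4 genes named, in each gingiva (blue) and CAA (red) library, with the group mean as a line. The groups do not overlap in any of the 4 genes, and the CAA point of ENSCAFG00000007322 at 473.7 CPM is replicate 4.

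The direction of change followed the expression level. Genes were placed in classes by the mean of their CAA and gingiva levels, both groups counting equally. Of 4626 genes at 1 to 10 CPM, 1144 (24.7%) were called higher in CAA and 475 (10.3%) lower. Of 7318 genes at 10 to 100 CPM, 1175 (16.1%) were higher and 1365 (18.7%) lower. At 100 to 1000 CPM the order was the reverse of that in low genes, with 159 of 1693 genes (9.39%) higher and 484 (28.6%) lower. Of the 59 genes at 1000 CPM or more, 3 were higher and 22 (37.3%) lower. The 942 genes under 1 CPM had 179 higher (19.0%) and 119 lower (12.6%). The share of a class that was called at all varied little between the 4 classes under 1000 CPM, from 31.6% to 38.0%, so that the classes differed chiefly in direction.

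A gene can pass the low-count filter because it is high in only 1 group, and such a gene had to differ, which bears most on the class under 1 CPM. Over every gene of a class, called or not, the median log2 fold change was 0.24 under 1 CPM, 0.32 at 1 to 10 CPM, -0.07 at 10 to 100 CPM, -0.26 at 100 to 1000 CPM and -0.40 at 1000 CPM or more. Other scalings moved all classes together. With library totals alone, higher genes made up 84.8% of calls at 1 to 10 CPM, 81.2% at 10 to 100 CPM, 67.5% at 100 to 1000 CPM and 40% at 1000 CPM or more, against 70.7%, 46.3%, 24.7% and 12% under TMM. With upper-quartile factors the shares were 76.0%, 59.1%, 36.2% and 27.3%. The prevailing direction at 10 to 100 CPM thus flips under both of these scalings, and at 100 to 1000 CPM with library totals, while the fall of the share from class to class over these 4 was found under all 3. Without CAA replicate 4 and gingiva replicate 3 the shares under TMM were 73.6%, 46.8%, 25.6% and 20%.

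The distance between low and high genes does not depend on how a library is scaled. In each library, the median log2 CPM of the genes at 1 to 10 CPM was subtracted from that of the genes at 100 to 1000 CPM, a measure chosen after the classes had been seen. This span was 5.28, 5.16, 5.29, 5.38 and 4.93 in CAA replicates 1 to 5. In gingiva it ran from 5.66 to 6.02, with a median of 5.74, so that every tumor had a narrower span than every gingiva library. The mean was 5.21 ± 0.18 in CAA (SD, n = 5) and 5.82 ± 0.17 in gingiva (SD, n = 7). The difference of -0.61 restates the pattern of the classes it was built from, so no test is given.

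The same was seen tumor by tumor. At 1 to 10 CPM, the median gene of a tumor lay 0.23 to 0.47 above the gingiva mean on the log2 scale. Gingiva libraries, each set against the other 6, ran from -0.11 to 0.22. At 100 to 1000 CPM the tumors lay between -0.39 and -0.16 and the gingiva libraries between -0.10 and 0.14. The groups did not overlap in these classes. Under 1 CPM CAA replicate 4 stood at -0.01, among the gingiva libraries, and at 1000 CPM or more it stood at -0.12, above gingiva replicate 1 at -0.32. CAA replicate 5 was the farthest from the gingiva mean in each of the 5 classes, from 0.52 under 1 CPM to -0.74 at 1000 CPM or more.

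**Figure D3:**
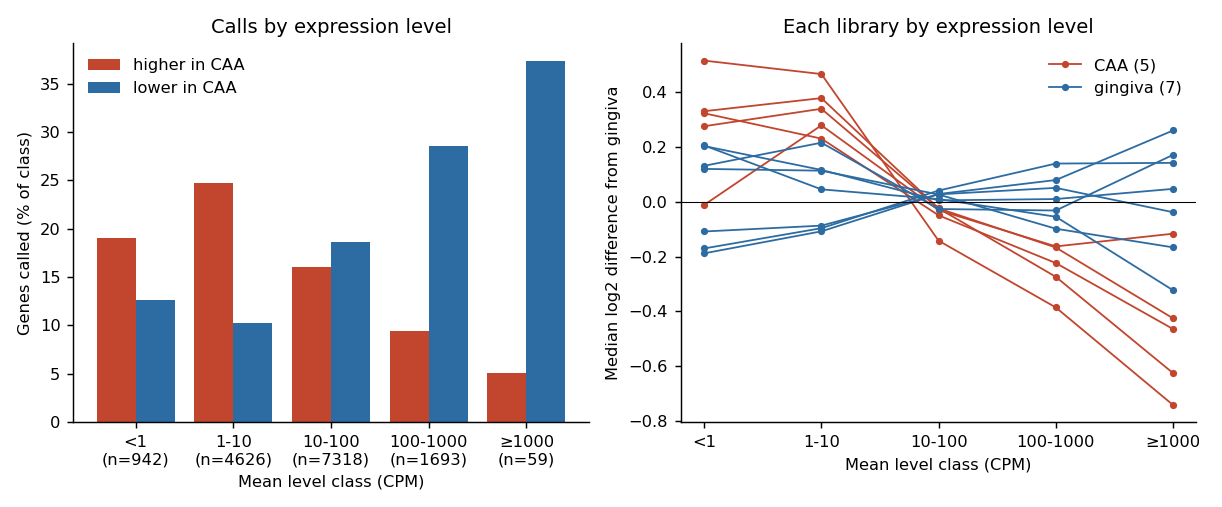
Left, the percent of genes called higher (red) or lower (blue) in CAA in 5 classes of mean level, with the number of genes in each class. Right, the median log2 difference of each CAA library (red) from the gingiva mean and of each gingiva library (blue) from the other gingiva libraries; the groups do not overlap at 1 to 10 CPM (CAA 0.23 to 0.47) and at 100 to 1000 CPM (CAA -0.39 to -0.16).

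Most genes stayed in the same class of level, though a gene near a class bound can cross it by a small difference. Of all genes tested, 306 were at least 8-fold higher in CAA and 294 at least 8-fold lower. Between the group means, 10918 genes (74.6%) kept their class of CPM, 1989 (13.6%) moved up at least 1 class and 1731 (11.8%) moved down. Of 97 genes with a gingiva mean of 1000 CPM or more, 40 were still there in CAA, 52 fell to the 100 to 1000 CPM class and 5 fell further. In the other direction, 12 genes reached 1000 CPM in CAA from a lower class in gingiva. A move of at least 2 classes was made by 59 genes upward and by 70 downward.

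Genes that were on in one tissue and off in the other were few. A gene was taken as on in a group at 1 CPM or more in every library, and as off at 3 counts or fewer in every library, a floor of 0.152 to 0.264 CPM depending on the library. Sequenced reads here carry no stated molecular identifiers, and this floor is a chosen number of counts that was not estimated from an error. By this rule 10 genes were on in all 5 CAA and off in all 7 gingiva libraries, and 2 genes were on in all gingiva and off in all CAA libraries. The first set needed 1 CPM in 5 libraries and the second in 7, so the counts are not on equal terms. These genes were chosen by their values, which are given as a description. With off set at 0 counts, no gene met the rule in either direction, so every on/off gene had a count in some library of the off group.

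The strongest on gene had 8.28, 5.97, 48.6, 11.5 and 51.3 CPM in CAA replicates 1 to 5 and 5 counts in all 7 gingiva libraries together. The next had 12.4, 23.9, 11.7, 14.9 and 46.2 CPM, with 7 counts in gingiva together. Tumor replicate 5 was the highest in both. The genes of rank 3 and 4 had CAA medians of 9.399 and 6.94 CPM, and the remaining 6 had medians between 1.63 and 3.87 CPM. Between the tumors each of the 10 genes varied 2.16-fold to 8.59-fold. These genes are thus of low level in the tumor, with no more than 51.3 CPM in any CAA library.

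Of the genes lost, the first had 7.65 to 190.7 CPM in gingiva, with a median of 35.8, and at most 3 counts in a CAA library. The second had 3.18 to 14.9 CPM in gingiva, with a median of 6.85, and 5 counts over all CAA libraries. The lowest gingiva value of both was in replicate 3. The count of lost genes was sensitive to single libraries: it was 19 without CAA replicate 4, 6 without CAA replicate 3, 5 without gingiva replicate 3 and 4 without gingiva replicate 6. The count of gained genes was 16 without CAA replicate 2, 15 without gingiva replicate 3, and 10 to 14 without any other single library. Without CAA replicate 4 and gingiva replicate 3 together, 18 genes were gained and 24 lost.

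Genes silent in one tissue were more often on in part of the other group than in all of it. Among 12789 genes off in every gingiva library, 183 reached 1 CPM in a single CAA library, 52 in 2, 17 in 3, 17 in 4 and 10 in all 5. CAA replicate 5 carried 195 of these genes at 1 CPM or more and CAA replicate 3 carried 106, against 46 to 59 in the other 3 tumors. Among 12048 genes off in every CAA library, 59 reached 1 CPM in a single gingiva library and 2 in all 7, with 27 to 53 genes per gingiva library.

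The counts of CAA were spread over more genes than those of gingiva. The number of genes needed to hold 50% of a library's counts was 914, 942, 983, 546 and 765 in CAA replicates 1 to 5. In gingiva it was 288 to 658, with a median of 459. The means were 830 ± 178.8 in CAA (SD, n = 5) and 461.3 ± 143.6 in gingiva (SD, n = 7; exact two-sided permutation p = 0.00758, adjusted 0.0121 over 6 library measures). CAA replicate 4 lay within the gingiva range and the other 4 tumors above it. The 500 most abundant genes of a library held 42.2% ± 4.19 of its counts in CAA (SD, n = 5) and 51.4% ± 4.15 in gingiva (SD, n = 7; exact permutation p = 0.00758, adjusted 0.0121). Without CAA replicate 4 and gingiva replicate 3, the number of genes holding 50% of the counts was 410.8 higher in CAA. These libraries were left out after the values had been seen. CAA replicate 4 was the only tumor within the gingiva range, so no test is given for this setting.

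**Figure D4:**
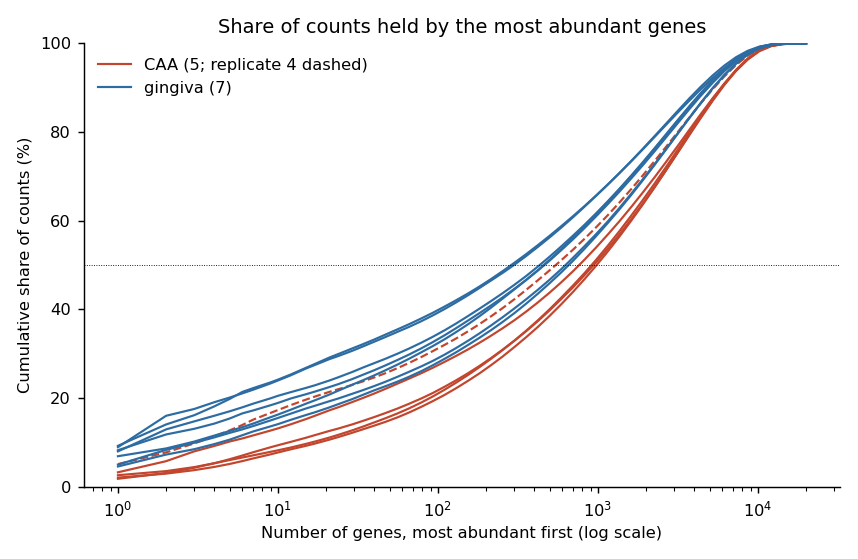
Cumulative share of a library's counts (y axis, percent) held by its most abundant genes (x axis, number of genes on a log scale) in 5 CAA and 7 gingiva libraries; the dotted line marks 50%. The CAA curves cross 50% at 546 to 983 genes, replicate 4 first, and the gingiva curves at 288 to 658.

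Counts of genes over a fixed level were added after the level classes had been seen and are given without a test. CAA libraries had 13573 to 14067 genes at 1 CPM or more and gingiva libraries 13064 to 13522. At 10 CPM or more the ranges were 9208 to 9505 and 8856 to 9129. CAA thus had more genes at these levels, without overlap, by 454.5 and 343.4 on average under TMM and by 876.3 and 1104 with library totals. At 100 CPM or more, CAA had fewer genes under TMM, 1668 to 1868 against 1911 to 2261, and 319 more on average with library totals. At 1000 CPM or more the groups overlapped, with 40 to 77 genes in CAA and 66 to 119 in gingiva, and CAA replicate 4 lay above gingiva replicates 1 and 6. The mean difference there was -39.8 genes under TMM and -2.51 with library totals.

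The loss from gingiva to CAA was held by few genes and the gain by many. In percent of library counts, which needs no scaling factor, 26.2 points moved between the group means. Of this loss, 50% came from 11 genes, all 11 called lower and 8 with ranges that did not overlap, while 50% of the gain came from 450 genes, 252 of them called higher. The 11 genes took 17.5% ± 3.59 of counts in gingiva (SD, n = 7) and 4.37% ± 2.15 in CAA (SD, n = 5). The 450 genes took 13.0% ± 2.18 in gingiva and 26.1% ± 4.55 in CAA. These sets were chosen by the differences they show, so no test is given.

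The most abundant gene of both groups gave the largest loss. It fell from 7.25% to 2.55% of counts, or 17.96% of the loss, with an edgeR log2 fold change of -1.90 ± 0.50 (SE, adjusted p = 0.0103). Its CAA values were 21266, 14235, 16315, 50614 and 10408 CPM, and CAA replicate 4 lay within the gingiva range of 44821 to 118537 CPM. ENSCAFG00000007322 fell from 4.03% to 0.0121% of counts and gave a further 15.3% of the loss. No gene gained on this scale: the largest gain was 0.978 points, or 3.74% of the total gain.

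Tumors differed in how their counts were redistributed. In CAA replicates 1 to 3, set singly against the gingiva mean, 8, 12 and 13 genes held 50% of the loss and 667, 520 and 723 genes 50% of the gain. In CAA replicate 4 it was 40 and 105 genes, and in CAA replicate 5 it was 30 and 169. In the latter tumors the gain was thus concentrated in fewer genes.

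A set of 3 abundant genes moved together across the libraries. They had ranks 3, 4 and 8 in CAA, and 41, 39 and 45 in gingiva. Their joint share of counts was 0.430%, 3.23%, 0.214%, 2.15% and 7.97% in CAA replicates 1 to 5. In gingiva it was 0.0563% to 1.19%, highest in replicate 3. CAA replicates 2, 4 and 5 lay above the gingiva range and CAA replicates 1 and 3 within it. Pairwise, Pearson's r of log2 CPM was 0.989 to 0.996 over the 12 libraries, a description of genes picked after their values were seen, in libraries that share their totals. Their log2 fold changes were 2.46 ± 0.87, 2.04 ± 0.79 and 2.06 ± 0.78 (SE), with edgeR adjusted p-values of 0.0415, 0.0587 and 0.0553, so that only the first passed the threshold.

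The lists of abundant genes overlapped in part. The 50 most abundant genes of gingiva and the 50 of CAA shared 30 genes, 60% of each list, and the lists of 500 shared 360, or 72%. Of the 50 of gingiva, 28 were called lower and 1 higher in CAA. Of the 50 of CAA, 9 were called higher and 9 lower, near the shares over all genes tested (18.2% higher and 16.8% lower). Of the 10 most abundant genes of gingiva, 6 were called lower and the other 4 had log2 fold changes of -0.42 to 0.02 with edgeR adjusted p-values of at least 0.211. Lists picked by a high gingiva level favour genes that are lower in CAA, and the reverse, so these counts are a description.

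As a group, the 2465 genes called lower held 45.1% ± 4.31 of gingiva counts (SD, n = 7) and 20.6% ± 3.60 of CAA counts (SD, n = 5). The 2660 genes called higher held 5.22% ± 0.92 of gingiva counts and 17.2% ± 4.34 of CAA counts. The 9513 genes tested but not called took the rest of the gain in share, from 49.5% ± 3.47 in gingiva to 62.1% ± 1.06 in CAA.

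Most called genes set 4 or 5 of the 5 tumors outside the gingiva range. All 5 CAA libraries lay above every gingiva library in 1242 of the 2660 genes called higher (46.7%), and 4 of the 5 did in a further 775 (29.1%). Among all genes tested, 8.56% had all 5 tumors above the gingiva range and 6.65% had 4 of 5. All 5 lay below it in 1073 of the 2465 genes called lower (43.5%), and 4 of 5 in 685 (27.8%). Over all genes tested these shares were 7.41% and 6.55%. These positions rest on the libraries that gave the calls. Their balance depended on the scaling, with 2256 genes above and 478 below when library totals were used. Without CAA replicate 4 and gingiva replicate 3, every remaining tumor lay above the gingiva range in 2142 genes called higher and below it in 2074 called lower, where fewer libraries also make separate ranges more frequent.

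CAA replicate 5 was farthest from gingiva in the called genes. It lay above the gingiva range in 93.7% of the genes called higher and below it in 88.8% of those called lower. It was the highest of the 5 tumors in 48.6% of the genes called higher and the lowest in 45.2% of those called lower. CAA replicate 1 was the highest in 5.15% and CAA replicate 4 in 9.51%. CAA replicate 4 was most often the only exception: it alone lay inside the gingiva range in 329 genes called higher and 356 called lower, against 46 to 183 and 49 to 142 for the other tumors. The median log2 difference from gingiva over the genes called higher was 1.13, 1.36, 1.39, 1.15 and 1.76 in CAA replicates 1 to 5. Over the genes called lower it was -0.90, -1.02, -1.08, -0.88 and -1.28.

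**Figure D5:**
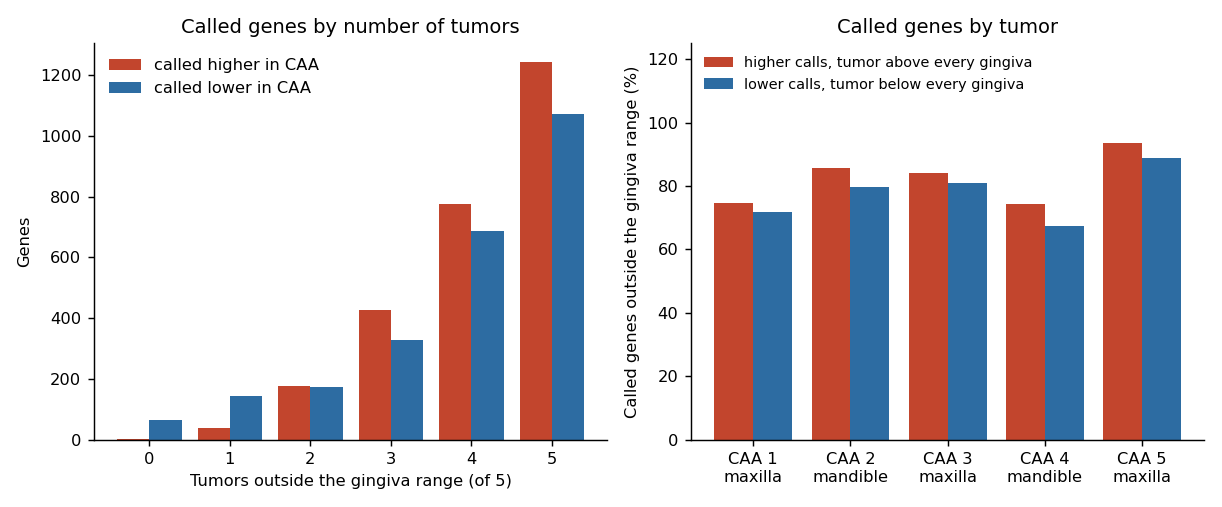
Left, the number of genes called higher (red) or lower (blue) by how many of the 5 tumors lay outside the gingiva range in the direction of the call. Right, for each tumor with its jaw, the percent of called genes in which it lay outside that range, from 67.5% (genes called lower, CAA replicate 4) to 93.7% (genes called higher, CAA replicate 5).

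The spread between tumors was close to that between gingiva libraries, a difference that was not tested. The biological coefficient of variation was 0.438 in CAA alone and 0.411 in gingiva alone. The median SD of a gene on the log2 scale was 0.412 in CAA and 0.459 in gingiva over all genes tested, and 42.6% of genes had the larger SD in CAA. In the 306 genes called at least 8-fold higher, the highest tumor was typically 4.78 times the lowest (median over genes). In the 284 called at least 8-fold lower it was 6.35 times. Between gingiva libraries these ratios were 5.27 and 6.06 in the same genes. A spread of at least 16-fold between tumors was found in 390 of 14638 genes (2.66%), and between gingiva libraries, of which there are more, in 450 (3.07%).

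Some genes belonged to a single library. A gene was counted when it had at least 1 CPM in a library and at least 10 times its level in each of the other 11. CAA replicate 5 had 61 such genes, CAA replicate 3 had 11, and the other CAA libraries 0 to 5. Gingiva libraries had 0 to 7. The highest level of such a gene was 407.7 CPM among the tumors, in CAA replicate 5, and 2721 CPM in gingiva, in replicate 2.

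The calls were tried without each library in turn. Of the 5125 calls, 3596 (70.2%) were made in the same direction in all 5 fits that left out a CAA library, and 3558 (69.4%) in all 12 fits. The smallest count, 4005, was reached without CAA replicate 5, and the largest, 5935, without gingiva replicate 3.

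The jaw was examined within CAA, with 3 maxillary against 2 mandibular tumors. Of 15327 genes, 0 passed an edgeR adjusted p of 0.05, and 244 (1.59%) had an unadjusted p under 0.05. Limma voom gave 0 as well, with 192 at an unadjusted p under 0.05. DESeq2 gave 8, with 509. It was run on all 23646 genes with a count in these tumors, a wider set than the 15327. With maxillary tumors only, 4371 genes differed from gingiva, 2474 higher and 1897 lower. Since 6 gingiva samples have no jaw, the difference from gingiva could not be compared within a jaw.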

How the data were processed

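Total RNA was depleted of ribosomal RNA and made into directional libraries, per the labels' protocols. The deposited values are raw counts per Ensembl gene, 1 column per library. The submitters' processing notes name STAR and canFam3; the counting program, strand setting and annotation release are not given in the sources used here. All 23 columns matched a library name, with 0 unmatched. No identifier matched the RefSeq gene table, so the planned gene lists were not run.

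Counts of the 12 libraries were filtered with filterByExpr by group, scaled by TMM and fitted with edgeR 4.0.16 in R 4.3.3 (quasi-likelihood, group means). The 14638 genes kept hold 99.85% of counts. P-values were adjusted by Benjamini-Hochberg, and genes under 0.05 are called. Standard errors were derived as |log2 fold change| over the root of the F statistic. For log2 CPM the prior count was 2. Exact two-sided permutation compared the library measures with scipy 1.17.1, 6 tests in a family. The procedure was tested on simulated data. No 2 libraries of a group agreed within counting noise (31 pairs, mean chi-square per gene at least 49.7). Same-numbered CAA and gingiva libraries did not deviate together (r from -0.20 to 0.15).

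The members, classes and rules were chosen with earlier results of these data known. The genes named are the 2 per direction with the largest difference in mean CPM among called genes of at least 2-fold difference and separate ranges. Alternatives included DESeq2 1.42.0 and limma 3.58.1 (voom with sample quality weights). A planned reading of each tumor against calls made without it was left out, since both would use the same gingiva libraries.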

Additional observations from a re-analysis of the deposited data

Results flagged for a closer look

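Single libraries that lay far from the rest of their group were looked for in 38 sets of values by Dixon's gap test at 95%. The test picked out 5, and about 1.9 would be picked by chance alone. Sets of the same libraries are not independent. In CAA replicate 4, 18932 genes were detected by 1 count or more, the nearest tumor having 19884. It also had 473.7 CPM of ENSCAFG00000007322, against 37.6 in the nearest tumor and at least 19828 in gingiva. CAA replicate 5 had 14067 genes at 1 CPM or more, against 13709 in the nearest tumor. Gingiva replicate 3 had 1179 CPM of ENSCAFG00000008557, against 906.8 in the nearest gingiva library, and a value of -92.2 on the second principal component, against -2.63. The 3 abundant genes that moved together were also highest in that library among gingiva. The causes were not tested.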

How the results depend on the processing

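The count of called genes stayed within 1.5 times 5125 in every fit tried. It was 4005 to 5935 without single libraries (higher 2081 to 3180, lower 1924 to 2755), 3862 with all 23 libraries in the fit, 6546 with DESeq2 and 6451 with limma voom. Library totals gave 4733 higher and 1149 lower. The replicate numbers are no pairing. With a replicate block over replicates 1 to 5 there were 1917 higher and 1592 lower, against 2540 and 2098 in the same libraries with no block.

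By level, library totals gave 1764 higher at 1 to 10 CPM, 2313 higher and 537 lower at 10 to 100 CPM, 408 and 196 at 100 to 1000 CPM, and 8 and 12 at 1000 CPM or more. The 3 higher genes of the last class became 6 with upper-quartile factors, 6 without CAA replicate 4 and gingiva replicate 3, and 1 to 6 without single libraries. Lower calls under 1 CPM were 73 to 105 without single libraries. On/off genes numbered 5 and 2 (gained and lost) with on at 2 CPM, 31 and 10 at 0.5 CPM, 70 and 19 with off at 10 counts, and 0 and 0 with off at 0 counts. They were 10 to 16 and 2 to 19 without single libraries, and 18 and 24 without CAA replicate 4 and gingiva replicate 3. Genes with every tumor above or below gingiva numbered 2256 and 478 with library totals, and 2142 and 2074 without CAA replicate 4 and gingiva replicate 3.

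Genes with at least 1 count numbered 19828 ± 517.8 in CAA (SD, n = 5) and 18675 ± 438.4 in gingiva (SD, n = 7; exact permutation adjusted p = 0.0121). Over the tested genes alone, CAA had 17.7 more such genes (exact permutation adjusted p = 0.280). Tested genes needed reads to pass the filter, so this second count had little room to differ. With library totals, CAA exceeded gingiva by 876.3 genes at 1 CPM or more, 1104 at 10 CPM or more and 319 at 100 CPM or more, and the difference at 1000 CPM or more was -2.51. The 6 tested library measures passed the threshold without any single library (largest adjusted p = 0.0364, exact permutation). DESeq2 gave 8 genes between the jaws. All 4 named genes kept their direction in 26 settings each. They were picked in these same libraries for separate ranges, so fits without a library could hardly reverse a direction. ENSCAFG00000016017 lost the threshold in 1 setting, the fit of all 23 libraries. The cause was not tested. The floor of 3 counts, at most 0.264 CPM, was a chosen cut-off, so a gene taken as off can still be present at a low level. The gene of rank 5 among those on in CAA had 15 counts over the gingiva libraries together.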

Other observations

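The carcinoma libraries, which above entered only an alternative fit of all 23 libraries, give levels for the genes that were on in all 5 CAA and off in gingiva. All 10 reached 1 CPM in at least 1 of the 11 COSCC libraries and in at most 5, and none did in all 11. Among all 12789 genes off in gingiva, 823 (6.44%) reached 1 CPM in a COSCC library. Of these 12789 genes, 12510 reached 1 CPM in no CAA library, so this share is not a like base for the 10. The strongest on gene of CAA, with 5.97 CPM or more in every tumor, had a COSCC median of 0.174 CPM and reached 1 CPM in a single COSCC library, at 11.3 CPM. The second had a COSCC median of 0.732 CPM and a maximum of 63.9 CPM. Of the 2 genes on in gingiva and off in CAA, the first reached 1 CPM in 4 COSCC libraries and the second in 0, with at most 0.755 CPM.

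ENSCAFG00000007322, at 17.5 to 473.7 CPM in CAA, ran from 16.6 to 5760 CPM in COSCC, with a median of 408.1. ENSCAFG00000008557 ran from 535.3 to 3160 CPM in COSCC with a median of 1013, and ENSCAFG00000005843 from 208.2 to 1116 CPM with a median of 416.9. ENSCAFG00000016017 ran from 1.34 to 1433 CPM in COSCC with a median of 3.80, against 304.2 to 1658 CPM in CAA. The COSCC median thus lay between the CAA and gingiva medians in the other 3 genes and below every CAA library in this one. These values were scaled with all 23 libraries, and no difference from CAA was tested.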
